A study of Mus musculus with 3 samples.

Results

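The genes described here are 9 transcription factor genes of T cell dysfunction and of T helper lineages other than Th1, taken by symbol from 23337 gene symbols: Tox, Tox2, Prdm1, Maf, Irf4, Id2, Bcl6, Gata3 and Rora. Each had 1 row in the table. They were measured in 3 RNA libraries of CD4+ T cells labelled Th1 cells, the T helper class defined by the factor T-bet and by interferon gamma. All cells came from Wild-type mice of strain C57/Bl6j, aged 7 weeks, and no treatment is named. One group was the cells isolated from the B16-F10 tumor, a transplantable melanoma of this mouse strain, with 1 library. The other was cells labelled as coming from spleen, lymph nodes and draining lymph nodes, with 2 libraries whose titles name spleen alone, called lymphoid libraries 1 and 2 below. The labels give no marker used to pick Th1 cells out of the CD4+ cells, and no word on whether libraries came from separate or pooled animals, so the spread between the lymphoid libraries may be technical.

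These proteins set which program a CD4+ T cell follows. TOX and TOX2 are HMG-box DNA-binding proteins, and TOX is known for maintaining exhausted T cells under chronic antigen. PRDM1, also called Blimp-1, and BCL6 are zinc finger repressors that act against each other, Blimp-1 in effector cells and BCL6 in follicular helper T (Tfh) cells. IRF4 is induced with the strength of T cell receptor signalling and binds DNA together with BATF and other AP-1 proteins, and c-MAF, the product of Maf, is a bZIP factor of IL-10, IL-21 and IL-4 expression. ID2 has a helix-loop-helix domain but no DNA-binding region, and it keeps E proteins such as those of Tcf3 and Tcf12 off their E-box sites. GATA3 is the zinc finger factor of Th2 cells, and RORA is a nuclear receptor of Th17 cells and type 2 innate lymphoid cells.

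Levels are FPKM, a fragment value normalised for transcript length and library depth, divided by a median-of-ratios factor for each library and called scaled FPKM below. The factors were 0.579 for the tumour library, and 1.29 and 1.33 for lymphoid libraries 1 and 2, because the median tested gene was lower in the tumour library as deposited, by a log2 fold change of -0.96. The tumour library was the shallower one, at an estimated 3270000 fragments, against 11500000 and 15600000 in the lymphoid libraries. It also had a higher floor, read from odorant and vomeronasal receptor genes, which T cells should not express. Of 1440 such genes, those highest by mean over the 3 libraries were left out. The other 1411 averaged 0.266 scaled FPKM in the tumour library, against 0.0100 and 0.0436 in the lymphoid libraries. Of these, 40.8% were above 0 in the tumour library, against 14.8% and 59.2% in lymphoid libraries 1 and 2. Among T cell markers, Cd4 was at 73.9 scaled FPKM in the tumour library, against 67.9 and 59.3 in the lymphoid ones, and Cd3e at 111.2 in tumour cells, against 126.1 and 106.0 in lymphoid cells. Cd3g was at 144.4 in tumour cells, against 187.6 and 215.6 in lymphoid cells. Of the 6 T cell markers with a row, 2 were higher and 2 lower in the tumour library than in both lymphoid ones. The 6 summed to 495.7 in tumour cells, against 554.2 and 548.7 in lymphoid cells. The Th1 factor gene Tbx21 was at 12.9 in tumour cells, against 18.0 and 20.2 in lymphoid cells.

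Among the 9 genes, Bcl6 was the one that rose in tumour cells by the test across all genes on scaled values, and the dysfunction factor genes Tox and Tox2 were not called higher. Limma, with Benjamini-Hochberg adjustment over the 9800 genes whose mean reached 1 FPKM, tested 8 of the 9, all but Tox2. It called 1 of the 8 higher in tumour, where 12.7% of all tested genes were called higher, and 0 of the 8 lower, where 9.17% of all genes were. At these shares, the count of called genes among the 8 was near the background. The scaling set the split of all calls: it was 1246 higher and 899 lower here, 465 and 7620 with the values as deposited, and 4370 and 279 with library totals. The median log2 fold change of the 8 was -0.04, against -0.01 for all tested genes. With the counting error of the shallow tumour library added to the spread, 0 of the 8 were called, where 3.62% of all genes were called higher and 0.329% lower. By size alone, 1 of the 8 was at least 2-fold higher in tumour than in each lymphoid library, where 8.76% of all genes were, and 0 were at least 2-fold lower, where 5.96% were. Each of the 8 tumour values lay above or below both lymphoid values. With 1 library set against 2, such a place says little by itself, and the share of all tested genes with it was not computed. The fit rests on 1 tumour library and 1 residual degree of freedom, and less RNA per cell and fewer expressing cells cannot be told apart in such bulk libraries.

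**Figure D1:**
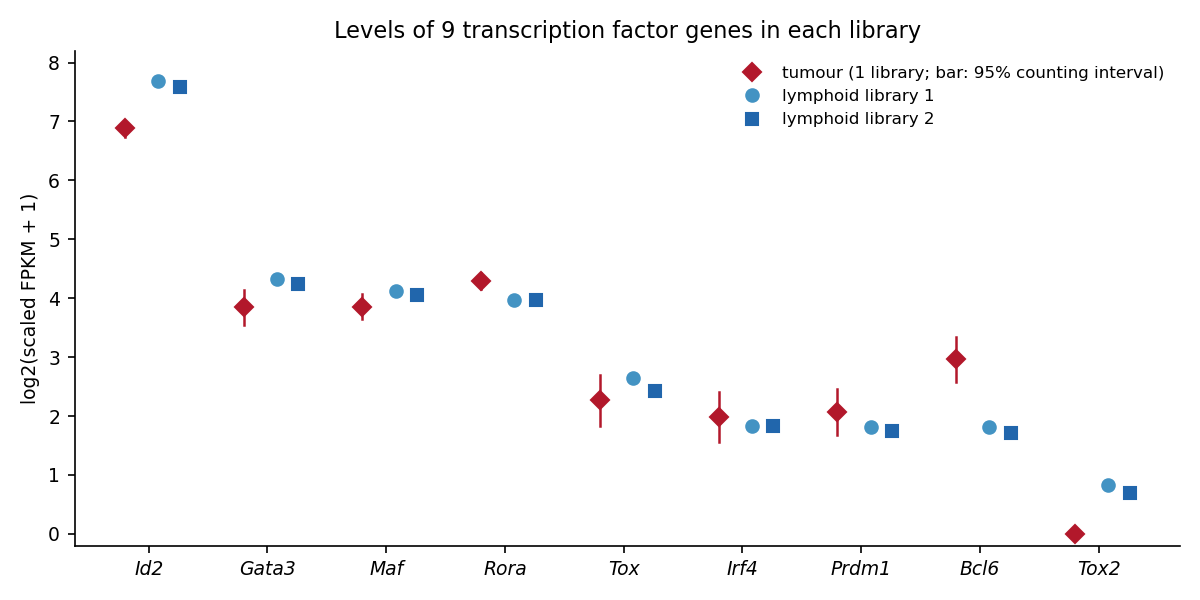
Level of each gene as log2(scaled FPKM + 1), with the tumour library as a red diamond and the lymphoid libraries as a blue circle and a blue square, and genes ordered by lymphoid mean. The bar on the tumour value is its 95% interval for counting error, which covers no other error, and Tox2, listed at 0, has none. Bcl6 sits above both lymphoid values and Id2 below both.

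The order of the levels, on a scale per transcript length, was led by Id2 in every library and closed by Tox2. Below Id2, the tumour library ran Rora, Maf, Gata3, Bcl6, Tox, Prdm1 and Irf4, while both lymphoid libraries ran Gata3, Maf, Rora, Tox, Irf4, Prdm1 and Bcl6. Several neighbours in these orders lay within their error: Prdm1 and Irf4 in the tumour library were at 3.20 and 2.97 scaled FPKM, with counting intervals of 2.19 to 4.51 and 1.96 to 4.32, and Maf and Gata3 there at 13.5 and 13.4. In the lymphoid libraries Prdm1 and Bcl6 averaged 2.44 ± 0.103 and 2.40 ± 0.146 scaled FPKM (SD, n = 2) and did not differ beyond their spread. Bcl6 thus stood last of the 8 tested genes in both lymphoid libraries and the fifth of 9 in the tumour library.

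Bcl6, which encodes the repressor that drives Tfh differentiation, was at 6.80 scaled FPKM in the tumour library, against 2.50 and 2.29 in lymphoid libraries 1 and 2. The tumour value lay above both lymphoid values, and its counting interval of 4.96 to 9.09, from about 45.4 fragments, did not reach them. The level was 2.84 times the lymphoid mean, 2.72 times library 1 and 2.96 times library 2. On the log2 scale with a pseudocount of 1, the rise was 1.20 with SE 0.15 (limma adjusted p = 0.00522). With tumour counting error added, the 95% interval of this change was 0.60 to 1.79, and the call was lost (limma adjusted p = 0.0657). Of all tested genes, 94.4% had a lower fold change than Bcl6. Unlike the other members, Bcl6 was also higher in the tumour library before any scaling, at 3.94 FPKM as deposited, against 3.23 and 3.06 FPKM in lymphoid cells. The gene lies on the minus strand of chromosome 16, from 23965052 to 23988852 (ENSMUSG00000022508.5) in GENCODE M21 on GRCm38, with 1 annotated coding transcript of 3525 nt.

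Ratios between members need no scaling factor, since both genes come from the same library. The ratio of Bcl6 to its antagonist Prdm1 was 2.13 in the tumour library, against 0.996 and 0.970 in the lymphoid ones. The ratio of Bcl6 to Gata3 was 0.507 in tumour cells, against 0.131 and 0.128 in lymphoid cells, and that of Bcl6 to Maf was 0.503 in tumour cells, against 0.153 and 0.146 in lymphoid cells. In these 3 ratios the tumour library stood 2.16, 3.91 and 3.37 times as high as the lymphoid mean, with the lymphoid libraries close to each other. They show unequal change of the paired genes and carry no test.

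The promoter windows of Bcl6 are shown because it was the called gene, that of Prdm1 because its product opposes BCL6, and that of Id2 because it had the lowest fold change of the tested members. The windows are RefSeq's, on GRCm38.p6, from 250 bases before to 50 bases after an annotated start, written 5′ to 3′ in the direction of transcription. The 3 genes lie on the minus strand. Capitals mark the STAT-type motif TTCNNNGAA and the E-box, CANNTG.
Bcl6, first window, chr16:23988803-23989102: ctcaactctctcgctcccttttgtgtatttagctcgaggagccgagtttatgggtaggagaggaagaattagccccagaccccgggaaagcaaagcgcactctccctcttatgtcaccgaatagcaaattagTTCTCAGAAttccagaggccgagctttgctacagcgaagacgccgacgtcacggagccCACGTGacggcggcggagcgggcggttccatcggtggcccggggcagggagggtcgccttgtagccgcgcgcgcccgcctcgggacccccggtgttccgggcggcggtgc
Bcl6, second window, chr16:23981234-23981533: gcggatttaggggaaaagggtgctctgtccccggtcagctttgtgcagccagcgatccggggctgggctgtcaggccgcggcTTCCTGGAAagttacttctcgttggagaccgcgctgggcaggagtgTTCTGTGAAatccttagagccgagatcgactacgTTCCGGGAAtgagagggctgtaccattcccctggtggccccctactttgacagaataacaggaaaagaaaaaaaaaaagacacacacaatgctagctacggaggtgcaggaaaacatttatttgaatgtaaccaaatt
Prdm1, chr10:44458699-44458998: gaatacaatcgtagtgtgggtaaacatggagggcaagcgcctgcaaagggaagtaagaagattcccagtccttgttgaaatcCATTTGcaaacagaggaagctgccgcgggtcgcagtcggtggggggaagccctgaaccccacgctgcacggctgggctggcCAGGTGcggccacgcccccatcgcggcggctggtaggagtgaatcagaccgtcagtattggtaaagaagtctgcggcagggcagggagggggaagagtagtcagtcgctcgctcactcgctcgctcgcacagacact
Id2, chr12:25096043-25096342: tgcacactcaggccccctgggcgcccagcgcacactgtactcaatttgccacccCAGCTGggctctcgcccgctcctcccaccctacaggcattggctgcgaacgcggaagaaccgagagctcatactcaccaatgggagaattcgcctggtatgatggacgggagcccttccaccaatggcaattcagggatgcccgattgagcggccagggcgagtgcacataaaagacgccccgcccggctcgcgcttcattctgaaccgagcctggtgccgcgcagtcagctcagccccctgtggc

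Both Bcl6 windows held the STAT-type motif, which 8.30% of 32851 promoter windows of that length held on either strand. It was present once in the first window, starting at -118 from the start site, and 3 times in the second, starting at -168, -122 and -88. STAT3 and STAT5 are known regulators of Bcl6, with STAT5 acting to repress it. Stat3 was at 31.5 scaled FPKM in the tumour library, against 18.7 and 19.3 in lymphoid cells, a called rise of 0.70 (limma adjusted p = 0.0392) that was lost with counting error added (limma adjusted p = 0.143). Whether Stat3 has a part in the Bcl6 level of these cells was not tested. The other 10 of the 12 windows, which cover 7 members, held no STAT-type motif. Windows of Tox and Maf were not used here. The E-box was held by 72.3% of all windows and by 9 of the 12 member windows, so its presence marks no member. In the first Bcl6 window the E-box starting at -60 reads CACGTG. It shares bases with a HIF-type motif (ACGTG, 19.6% of windows) and with a cyclic AMP response core (TGACG, 20.8%), and these last letters also stood in the Prdm1 window. The AP-1 motif TGANTCA (7.81% of windows) was held by the Prdm1 window alone among the 12.

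Further motifs were searched on both strands. The NFAT core GGAAAA (23.4% of all windows) stood in the second Bcl6 window, in the Rora window and in 2 of the 5 Tox2 windows, which overlap in all but 1 base. The MAF core TGCTGA (19.5%) stood in the Gata3 window and in the same Tox2 pair. That pair also held the IRF tandem GAAANNGAA (8.56%), the box for TATA-binding protein, TATAAA (13.6%), which Irf4 held too, and the SMAD site CAGAC (49.6%), which 6 of the 12 windows held. The sites named for BCL6 (TTCCTAGAA, 0.411%), Blimp-1 (GAAAGTGAA, 0.581%), the GATA factors (AGATAA, 11.2%), ROR (TAGGTCA, 2.61%) and NF-kB (GGGANNTTC, 3.94%) matched 0 of the 12 member windows. A match is a description of letters, and its absence says only that these letters are not in the window.

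Id2 was the most abundant of the 9 and had the lowest fold change of the 8 tested. It was at 116.9 scaled FPKM in the tumour library, against 204.2 and 189.9 in the lymphoid ones. The tumour value lay below both, as 0.593 times the lymphoid mean of 197.1 ± 10.1 (SD, n = 2), from about 436.2 tumour fragments. The log2 fold change was -0.75 with SE 0.20, which missed the threshold (limma adjusted p = 0.0539). With counting error added it was further from it (limma adjusted p = 0.175), with a 95% interval of -1.29 to -0.21. Genes of a like mean level, 100 to 300 scaled FPKM, had a median log2 fold change of -0.09 over 104 genes, while genes above 300 had -0.68 over 173. Id2 lies on chromosome 12, from 25093799 to 25097140 (ENSMUSG00000020644.9).

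While Id2 was not called, Id3, the Id2 relative that encodes another inhibitor of E proteins, was called higher. It was at 7.05 scaled FPKM in the tumour library, against 3.98 and 3.99 in lymphoid cells, a rise of 0.69 on the log2 scale (limma adjusted p = 0.0262), on about 17.1 tumour fragments. That call was lost with counting error added (limma adjusted p = 0.392). The ratio of Id2 to Id3 was 16.6 in tumour cells, against 51.4 and 47.6 in lymphoid cells. The E protein genes Tcf3 and Tcf12 were not called: Tcf3 was at 10.5 in tumour cells, against 9.55 and 11.1 scaled FPKM in lymphoid cells, and Tcf12 at 14.8 in tumour cells, against 17.9 and 16.3 in lymphoid cells.

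**Figure D2:**
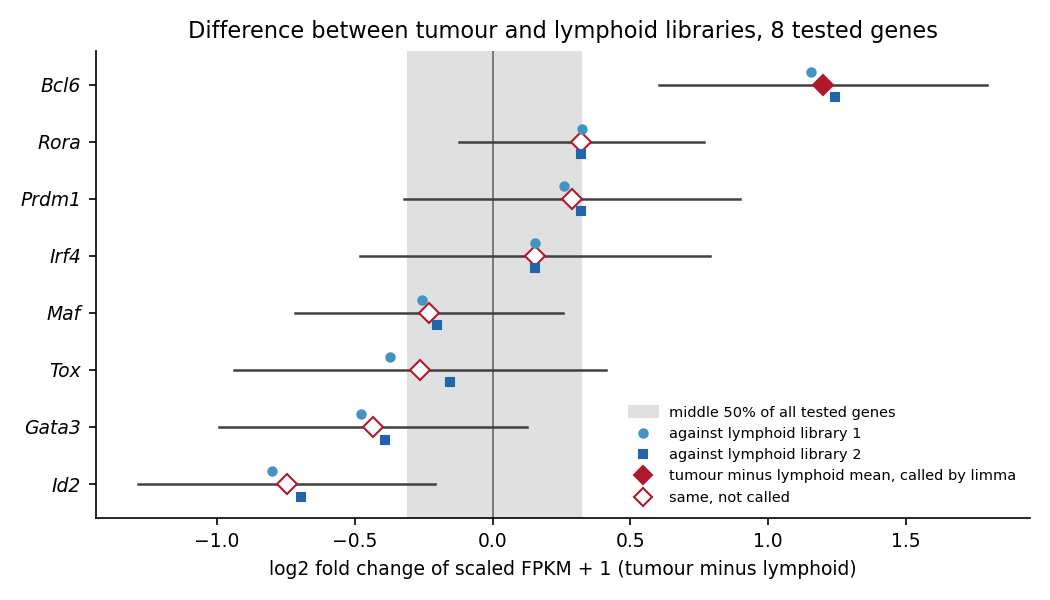
Log2 fold change of scaled FPKM + 1, tumour minus lymphoid, for the 8 tested genes. Diamonds give the change against the lymphoid mean, filled where limma called it, lines its 95% interval with tumour counting error, small symbols the change against each lymphoid library, and the grey band the middle 50% of all tested genes, from -0.31 to 0.32. Of the 8 intervals, those of Bcl6 and Id2 leave out 0.

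The dysfunction factor gene Tox was at 3.84 scaled FPKM in the tumour library, against 5.27 and 4.38 in the lymphoid ones. The tumour value lay below both, and closer to library 2 than the lymphoid libraries lay to each other. Its log2 fold change of -0.26 (SE 0.17) was not called (limma adjusted p = 0.306). The 95% interval with counting error, from about 28.8 tumour fragments, was -0.94 to 0.41 under this scaling. It does not cover the choice of scaling, and with library totals the log2 fold change of Tox was 0.37. A rise of Tox is therefore not excluded. Tox lies on chromosome 4, from 6686353 to 6991557 (ENSMUSG00000041272.11).

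Tox2 was listed at 0 in the tumour library, against 0.783 and 0.613 scaled FPKM in the lymphoid ones. These lymphoid levels stood for about 34.2 and 37.7 fragments on the longest coding transcript of 2947 nt, so the gene was detected in both. A count of 3 fragments on that transcript in the tumour library would be 0.537 scaled FPKM, close to the lymphoid values. Of 1066 genes with a lymphoid mean of 0.5 to 1 scaled FPKM, 8.72% were listed at 0 in the tumour library. The listed 0 was therefore near the limit of what this depth can show, and no fold is given. With no filter on low genes, limma, which takes the listed 0 as exact, called Tox2 lower (adjusted p = 0.0470), and with counting error added as well the call was lost (adjusted p = 0.571). Of their relatives, Tox4 was at 8.91 in tumour cells, against 7.94 and 6.40 scaled FPKM in lymphoid cells, not called, and Tox3 was listed at 0 in the tumour library and in lymphoid library 1 and at 0.0443 in library 2.

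Of 18 listed genes linked to TOX and chronic stimulation 14 were tested, and 7 of them rose and 0 fell, where 12.7% of all tested genes were called higher and 9.17% lower. The list median was 0.76, against -0.01 for all genes. With counting error added 7 were called higher, where 3.62% of all genes were. The list was chosen with earlier results of these data known, so these shares are a description and no independent test. Nr4a1, a nuclear receptor gene induced by T cell receptor signalling, was at 29.0 scaled FPKM in the tumour library, against 2.13 and 2.37 in lymphoid cells, and Tigit, an inhibitory receptor gene, at 70.7 in tumour cells, against 8.59 and 8.06 in lymphoid cells. The NFAT genes Nfatc1 and Nfatc2, whose products induce Tox, were at 20.9 in tumour cells, against 26.5 and 23.9 in lymphoid cells, and at 14.1 in tumour cells, against 14.1 and 13.4 in lymphoid cells, and were not called. Pdcd1, which encodes PD-1, was at 1.92 in tumour cells, against 2.02 and 1.65 in lymphoid cells, from about 7.03 fragments, without a call.

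**Figure D3:**
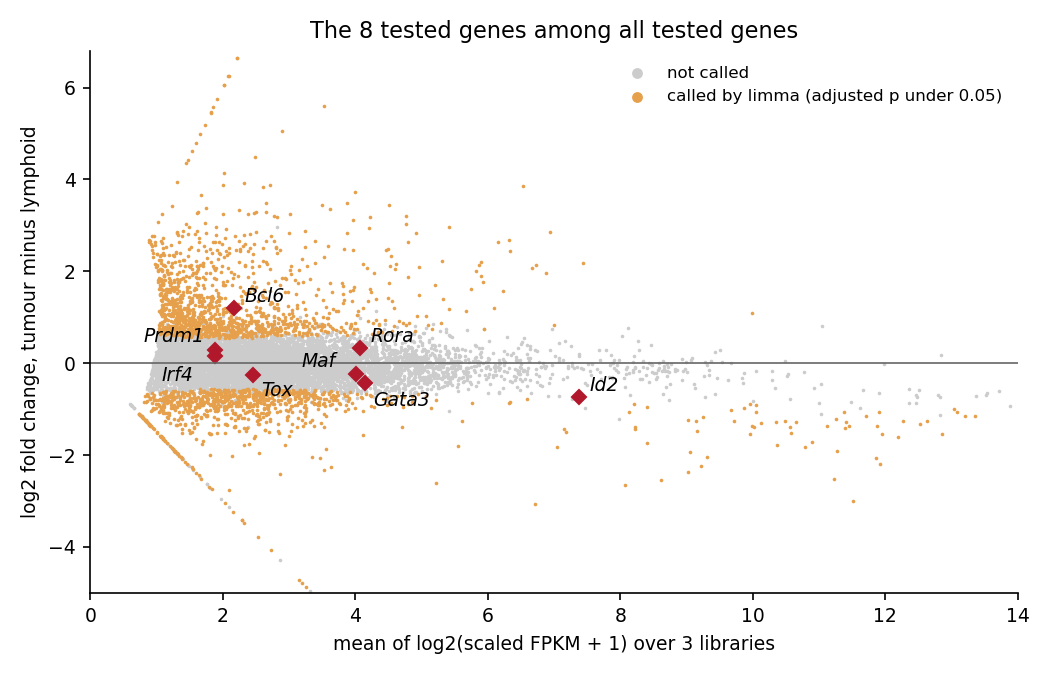
Log2 fold change, tumour minus lymphoid, against the mean of log2(scaled FPKM + 1) for all 9800 tested genes, with called genes in orange, others in grey and the 8 members as red diamonds; 14 genes lie outside the axes. Bcl6 lies higher than 94.4% of all tested genes and Id2 higher than 7.18% of them.

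Prdm1, the gene of the effector repressor Blimp-1, was at 3.20 scaled FPKM in the tumour library, against 2.51 and 2.36 in lymphoid cells. The tumour value stood above both, and the log2 fold change of 0.29 (SE 0.15) was not called (limma adjusted p = 0.217; 95% interval with counting error -0.32 to 0.90). Prdm1 lies on chromosome 10, from 44437177 to 44528501 (ENSMUSG00000038151.13). Of its listed relatives Prdm10 was called lower, at 0.913 scaled FPKM in the tumour library, against 2.54 and 2.88 in lymphoid cells (log2 fold change -0.95, limma adjusted p = 0.0129), on about 11.7 fragments and without a call when counting error was added (limma adjusted p = 0.147). Bach2, whose product represses Prdm1, was at 4.503 in tumour cells, against 2.96 and 3.15 in lymphoid cells, not called.

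Irf4 was at 2.97 scaled FPKM in the tumour library, against 2.57 and 2.56 in lymphoid cells. The tumour value stood above both, and the log2 fold change of 0.15 (SE 0.14) was not called (limma adjusted p = 0.485; 95% interval with counting error -0.48 to 0.79), from about 26.8 tumour fragments. Irf4 lies on chromosome 13, from 30749226 to 30766976 (ENSMUSG00000021356.10). Its partner genes Batf and Junb were at 16.2 in tumour cells, against 8.69 and 12.8 in lymphoid cells, and at 99.9 in tumour cells, against 59.9 and 75.7 scaled FPKM in lymphoid cells. Both tumour values lay above both lymphoid ones, and neither gene was called. The other IRF genes tested, Irf1, Irf2, Irf3, Irf5, Irf7, Irf8 and Irf9, had 0 calls, among them Irf7, an interferon-induced member, at 23.0 in tumour cells, against 14.01 and 15.4 in lymphoid cells.

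Maf was at 13.5 scaled FPKM in the tumour library, against 16.3 and 15.7 in lymphoid cells. The tumour value lay below both, and the log2 fold change of -0.23 (SE 0.16) was not called (limma adjusted p = 0.359; 95% interval with counting error -0.72 to 0.26), on about 162.8 tumour fragments. Maf lies on chromosome 8, from 115682942 to 115707794 (ENSMUSG00000055435.6). Among small MAF genes, which encode bZIP partners without an activation domain, Mafg was called higher, at 6.21 in tumour cells, against 1.82 and 3.15 in lymphoid cells (log2 fold change 1.08, limma adjusted p = 0.0353, and 0.162 with counting error added). Mafk was at 5.35 in tumour cells, against 2.99 and 4.11 in lymphoid cells, not called. Il10, a target of c-MAF, was listed at 0 in the tumour library and in lymphoid library 1, and at 0.0383 in library 2.

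Gata3 was at 13.4 scaled FPKM in the tumour library, against 19.1 and 17.9 in lymphoid cells. The tumour value lay below both, with a log2 fold change of -0.43 (SE 0.17) that was not called (limma adjusted p = 0.124; 95% interval with counting error -0.99 to 0.12). Gata3 lies on chromosome 2, from 9857078 to 9890034 (ENSMUSG00000015619.10). Its ratio to Tbx21, the factor gene it opposes, was 1.04 in tumour cells, against 1.06 and 0.886 in lymphoid cells. Among the Th2 genes 6 of 14 were tested and 1 rose, a share near the 12.7% of all tested genes, with 0 falls and a median of 0.25. It was Il4ra, which encodes the IL-4 receptor alpha chain, at 25.4 scaled FPKM in tumour cells, against 12.0 and 11.5 in lymphoid cells (log2 fold change 1.05, limma adjusted p = 0.0111, and 0.0460 with counting error added). Il4 was at 7.13 in tumour cells, against 6.49 and 5.66 in lymphoid cells, from about 8.18 fragments, without a call.

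Rora was at 18.5 scaled FPKM in the tumour library, against 14.6 and 14.7 in lymphoid cells, and stood next to Id2 in the order of tumour levels. The tumour value lay above both lymphoid values, which hardly differed. Its log2 fold change of 0.32 (SE 0.16) was not called (limma adjusted p = 0.215; 95% interval with counting error -0.12 to 0.77), on about 382.4 tumour fragments. Rora lies on chromosome 9, from 68653786 to 69388246 (ENSMUSG00000032238.17). The ratio of Rora to Gata3 was 1.38 in tumour cells, against 0.766 and 0.820 in lymphoid cells. Of 13 Th17 genes 5 were tested and 1 rose, again near the 12.7% of all tested genes, with 0 falls and a median of 0.22. It was Tmem176b, an ion channel gene, at 7.77 in tumour cells, against 3.50 and 3.85 in lymphoid cells (log2 fold change 0.91, limma adjusted p = 0.0133, and 0.221 with counting error added).

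The other lists tied to the members are given as counts, to be read against 12.7% higher and 9.17% lower over all tested genes. Tfh genes had 3 rises and 0 falls of 11 tested, with a median of 0.07. They were Cd200, an immune-regulatory ligand gene (9.71 in tumour cells, against 3.28 and 2.14 in lymphoid cells), Icos, a costimulatory receptor gene (41.0 in tumour cells, against 19.1 and 15.5 in lymphoid cells), and Tnfsf8, which encodes CD30 ligand (8.74 in tumour cells, against 4.78 and 4.33 in lymphoid cells). All 3 are also genes of activated T cells, and the calls were lost with counting error added (limma adjusted p = 0.0590, 0.0501 and 0.159). The Tfh receptor gene Cxcr5 was at 4.60 in tumour cells, against 7.34 and 5.76 in lymphoid cells, not called. The 17 tested paralogs had 2 rises, Mafg and Id3, and 1 fall, Prdm10, with a median of 0.28. The 26 tested partners, co-repressors and antagonists had 1 rise, Stat3, and 0 falls, with a median of -0.08. The BCL6 co-repressor genes Bcor and Ncor1 were not called, with Bcor at 10.4 in tumour cells, against 10.4 and 10.3 in lymphoid cells, and Ncor1 at 35.5 in tumour cells, against 39.0 and 39.3 scaled FPKM in lymphoid cells.

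Genes of IL-10 signalling and effector function had 2 rises and 2 falls of 10 tested, with a median of -0.25. Gzmb, which encodes granzyme B, was at 11.4 scaled FPKM in tumour cells, against 0.839 and 1.16 in lymphoid cells, and Socs3, a feedback inhibitor gene of cytokine signalling, at 27.2 in tumour cells, against 8.73 and 9.11 in lymphoid cells. The falls were Ifng, at 4.53 in tumour cells, against 12.9 and 12.0 in lymphoid cells, and Il10ra, which encodes a chain of the IL-10 receptor, at 3.71 in tumour cells, against 5.99 and 6.83 in lymphoid cells, and both calls were lost with counting error added (limma adjusted p = 0.205 and 0.327). Memory genes had 1 rise and 0 falls of 12 tested, with a median of 0.05. The rise was Myb, a factor gene of stem-like T cells, at 9.15 in tumour cells, against 3.61 and 3.88 in lymphoid cells (log2 fold change 1.10, limma adjusted p = 0.00712, and 0.0685 with counting error added).

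**Figure D4:**
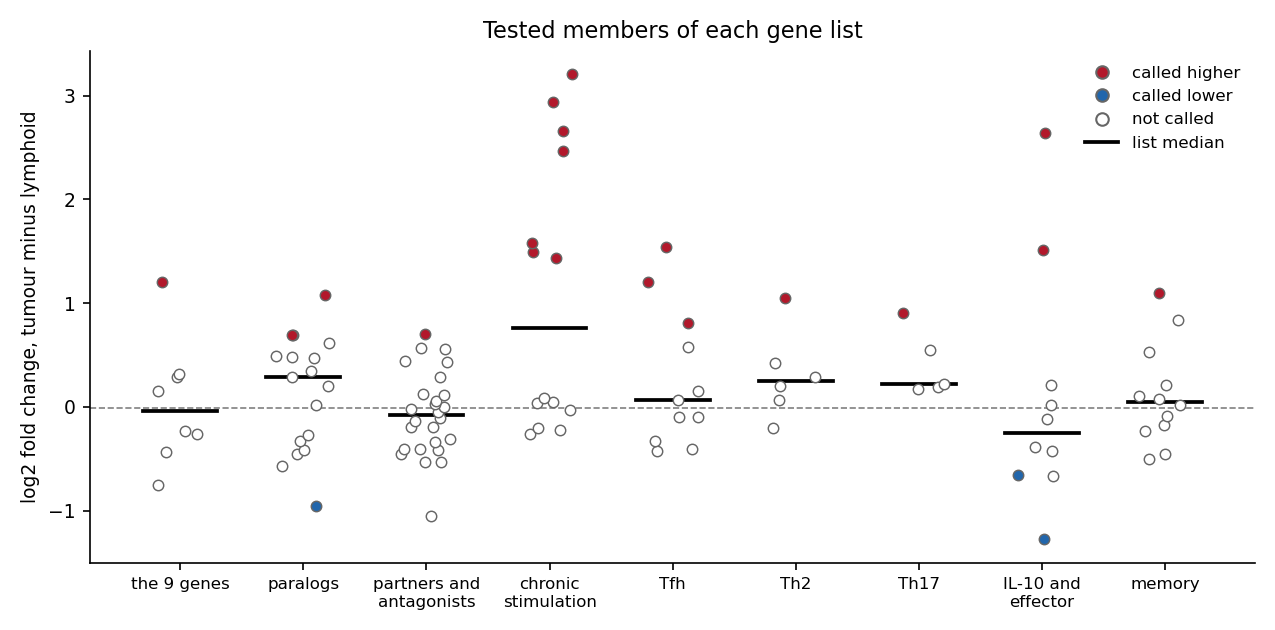
Log2 fold change, tumour minus lymphoid, of the tested genes of each list, with calls by limma in red (higher) and blue (lower), the list median as a black line and the median of all tested genes as a dashed line. The chronic stimulation list has 7 red points, and the 9 genes have 1, Bcl6.

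Several members are also expressed by other cells, so summed scaled FPKM of those cells' markers is given here, with how many markers were higher or lower in the tumour library than in both lymphoid ones. Low markers are to be read against the floor of the sensory receptor genes, 0.266 in the tumour library, against 0.0100 and 0.0436 in the lymphoid ones. The share of all low genes higher in the tumour library was not computed, so the counts carry no background. They do not show that these cells were present. Macrophage markers, of cells that use Maf, summed to 5.68 in tumour cells, against 0.441 and 0.558 in lymphoid cells, with 7 of 10 higher and 0 lower. The highest was C1qa, a complement gene (2.55 in tumour cells, against 0 and 0.0946 in lymphoid cells), followed by Cd14 (1.08 in tumour cells, against 0 and 0.0330 in lymphoid cells), while C1qb and Mrc1 were listed at 0 in all 3 libraries and 0 of the 10 reached the filter. Markers of type 2 innate lymphoid cells, which use Gata3, Rora and Id2, summed to 11.6 in tumour cells, against 5.51 and 4.93 in lymphoid cells, with 5 of 7 higher and 0 lower. Among them were Klrg1 (2.78 in tumour cells, against 0.257 and 0.438 in lymphoid cells) and Areg (1.83 in tumour cells, against 0.118 and 0.0843 in lymphoid cells), and the 1 marker tested, Il17rb, was not called. Markers of NK cells, which use Id2, summed to 66.3 in tumour cells, against 78.9 and 81.2 in lymphoid cells, with 4 of 7 higher and 2 lower and 0 of the 3 tested called. The receptor gene Ncr1 was at 1.47 in tumour cells, against 0 and 0.169 in lymphoid cells, and Klrb1c at 13.4 in tumour cells, against 23.6 and 20.1 in lymphoid cells. Markers of B and plasma cells, which use Bcl6, Irf4 and Prdm1, summed to 3.31 in tumour cells, against 1.12 and 0.767 in lymphoid cells, with 3 of 8 higher and 3 lower and 0 reaching the filter. The plasma cell gene Sdc1 was at 2.04 in tumour cells, against 0.0219 and 0.0309 in lymphoid cells, and 5 of the 8 were listed at 0 in the tumour library, among them the B cell gene Cd79b, at 0 in tumour cells, against 0.593 and 0.380 in lymphoid cells.

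Dendritic cell markers summed to 3.69 in tumour cells, against 1.21 and 1.17 in lymphoid cells, with 6 of 7 higher and 0 lower. Those of neutrophils and mast cells summed to 5.37 in tumour cells, against 0.791 and 0.526 in lymphoid cells, with 4 of 6 higher, among them Cxcr2, which was called, and 0 lower. Melanocyte markers summed to 3.35 in tumour cells, against 1.35 and 1.49 in lymphoid cells, with 4 of 7 higher and 1 lower, and with Mlana listed at 0 in all 3 libraries. Markers of fibroblasts and endothelium summed to 10.5 in tumour cells, against 9.84 and 9.004 in lymphoid cells, with 5 of 8 higher, such as Pdgfrb (1.04 in tumour cells, against 0.0243 and 0.0257 in lymphoid cells), and 1 lower. The 2 CD8 T cell markers summed to 5.27 in tumour cells, against 0.558 and 0.814 in lymphoid cells, and 1, Cd8b1, was called higher, a call lost with counting error added (limma adjusted p = 0.0721). Regulatory T cell markers summed to 79.3 in tumour cells, against 63.5 and 64.2 in lymphoid cells, with 2 of 6 higher and 3, Foxp3, Il2ra and Ikzf2, lower. Tnfrsf18 made up most of the tumour sum, and all 6 markers were tested. Of these the lineage factor gene Foxp3 was called lower (5.08 in tumour cells, against 11.3 and 8.93 in lymphoid cells) and Tnfrsf18, which encodes GITR, higher (48.3 in tumour cells, against 20.5 and 26.2 in lymphoid cells), and both calls were lost with counting error added (limma adjusted p = 0.212 and 0.121). Cxcr2 and Cd8b1 reached the filter's mean of 1 FPKM only through their tumour values, which favoured a call of higher. The part of these cells in the members' values was not tested. After the receptor floor was subtracted from each library, an alternative chosen after seeing the data, the log2 fold change of Bcl6 was 1.22 (limma adjusted p = 0.00572).

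The choice of scaling decided the sign of most of the other changes. As deposited, 7 of the 8 tested members were lower in the tumour library and 1, Bcl6, was higher without a call (0.25, limma adjusted p = 0.165), while with library totals all 8 had a positive value and 4, Bcl6, Prdm1, Irf4 and Rora, were called higher. Across the 15 settings that held all 8, the main one included, Bcl6 had the highest and Id2 the lowest log2 fold change in 15. Several settings could hardly change this order. No filter, a prior variance without trend and added counting error leave the fold changes as they are, and a scaling shifts all genes nearly together. Bcl6 was above 0 in all 14 of its alternatives, those with an unchanged value included, from 0.25 to 1.84. It was called in 10 of the 12 that had a test. Id2 was called lower in 4 of its 13.

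**Figure D5:**
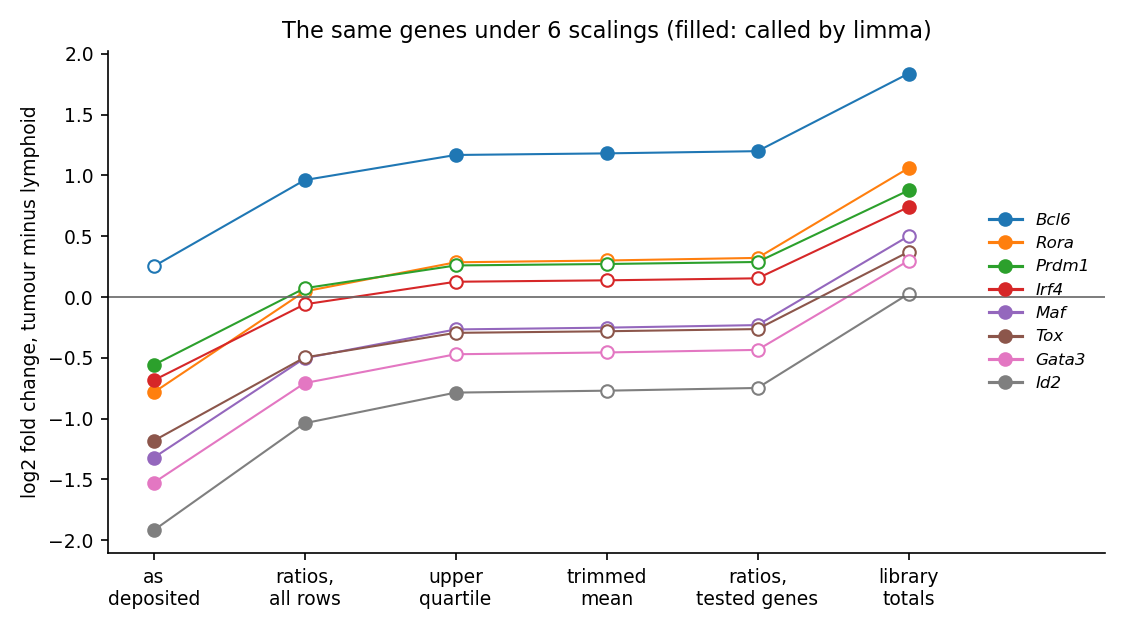
Log2 fold change, tumour minus lymphoid, of the 8 tested genes under 6 scalings, joined by lines for each gene, with filled points where limma called the gene. The lines shift together, from all below 0 except Bcl6 as deposited to all above 0 with library totals, and the line of Bcl6 stays on top and that of Id2 at the bottom.

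Members that share bases with other annotated genes could draw reads from them if counting did not use the strand, which is not given in the sources used here. Tox, Maf, Bcl6, Gata3 and Rora share between 21 and 440 exon bases with genes on the opposite strand in GENCODE M21, and Gata3 shares 77 with a gene on its own strand, 9230102O04Rik, that was listed at 0 in all 3 libraries.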

How the data were processed

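RNA from CD4+ T cells was sequenced in 3 libraries with a stranded, ribosomal RNA-depleted kit, per the labels' protocols. The values deposited by the authors were taken as FPKM, a unit inferred from the header style and from sums that differ between libraries. The submitters' processing notes name mm10, kallisto and DESeq2 without roles or versions, and what made the values is not given in the sources used here.

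Where a symbol had several rows, the row of highest mean was kept. GENCODE M21 gave coordinates and transcript lengths. Depth was estimated from the smallest step of FPKM multiplied by length. A gene's fragments use its longest coding transcript and are approximate, and their exact Poisson intervals cover counting error only.

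Median-of-ratios factors came from tested genes above 0 in every library. Limma 3.58.1 in R 4.3.3 was run with a mean-variance trend on log2(scaled FPKM + 1), and calls needed an adjusted p under 0.05. P-values rest on the spread between the 2 lymphoid libraries, which limma drew toward a trend fitted over all tested genes. Total degrees of freedom were 5.48, of which 1 was residual, so most of a gene's variance came from that trend. No spread between tumour libraries enters them. Counting error was added as the Poisson variance of the tumour value, for 9714 genes with a length. No count test was run, because the deposited values are not counts. In a simulation of the tumour against lymphoid comparison (9800 genes, 200 changed, 5 draws), log2 changes of 2 were recovered in 97.0% of genes and log2 changes of 1 in 7.80%. False calls averaged 12.4 and 2.6 genes per draw. The simulation gave all 3 libraries the same spread, without the counting error or the higher floor of the tumour library. Its recovery is therefore no estimate for the real comparison.

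The members, lists, motifs and tests were chosen with earlier results of these data known. Named genes are the members, for each list up to 2 called genes per direction (by size), and paralogs or direct partners of members. Tnfsf8, Cxcr5, Il4, Il10, Pdcd1, Nfatc1, Nfatc2 and the markers were named after their values were seen.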

Additional observations from a re-analysis of the deposited data

How the results depend on the processing

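Each result was recomputed with other scalings, filters, pseudocounts and error models, and without 1 lymphoid library. Of 116 member values under alternatives, 95 were labelled the same. For an alternative with a test, this meant the same direction and side of the threshold. Values without 1 lymphoid library have no test. Their rule, a shift smaller than the lymphoid spread, was met by construction, so they carry no information on stability. As deposited, 465 genes were called higher and 7620 lower, in place of 1246 and 899, and the log2 fold changes of Prdm1, Irf4 and Rora turned to -0.56, -0.68 and -0.78, while Tox, Maf, Id2 and Gata3 were called lower too. With library totals 4370 genes were higher and 279 lower, and Tox, Maf, Id2 and Gata3 turned to 0.37, 0.50, 0.026 and 0.30, while Prdm1, Irf4 and Rora were called higher (0.88, 0.74 and 1.06; adjusted p = 0.00894, 0.0280 and 0.00618). With median-of-ratios factors over all rows, added after seeing the data, 837 genes were higher and 1926 lower, the median gene lay at -0.25, Irf4 turned to -0.060, and Id2 and Gata3 were called lower (adjusted p = 0.0214 and 0.0348). Id2 was also called lower with upper-quartile scaling (adjusted p = 0.0391) and with a prior variance without trend (adjusted p = 0.0289). No filter gave 7364 higher calls, and a mean of at least 5 FPKM gave 211 higher and 191 lower, with fewer genes tested and without Bcl6, Tox, Prdm1 and Irf4. With counting error added there were 352 higher and 32 lower calls, none of them a member. Genes at least 2-fold higher numbered 1021 to 1059 without 1 lymphoid library, against 858, and genes at least 2-fold lower 729 to 746, against 584. The count of limma calls could not be had without a lymphoid library, since no residual degree of freedom is left. No paired analysis was possible because the tumour group has 1 library and shares fewer than 2 replicate numbers with the lymphoid group. Where a setting changed a call, the cause was not tested.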

Other observations

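Some listed relatives and partners of the members did not reach the filter because they were low in lymphoid cells, and they were picked here after their values were seen. Maff, a small MAF gene, was at 2.96 scaled FPKM in the tumour library, against 0.267 and 0.297 in the lymphoid ones. Nfil3, which encodes a bZIP repressor, was at 3.19 in tumour cells, against 0.308 and 0.388 in lymphoid cells. Nr4a2, a nuclear receptor gene of chronic stimulation, was at 3.28 in tumour cells, against 0.126 and 0.119 in lymphoid cells. Il21, a cytokine gene of Tfh cells, was at 2.27 in tumour cells, against 0.447 and 0.349 in lymphoid cells, and Il17a was at 1.41 in tumour cells and listed at 0 in both lymphoid libraries. These tumour values stood above the mean of 0.266 of the sensory receptor genes in that library, which follows from how the genes were picked. That mean is no bound for a single gene. Paralogs not known for T cell roles also stood above it, such as Gata1 (1.67 in tumour cells, against 0.288 and 0.204 in lymphoid cells) and Nrl (2.77 in tumour cells, against 0.191 and 0.160 in lymphoid cells).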
